A study of Macaca mulatta with 2 samples.

Results

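The genes described here carry glucose into the cell, break it down to pyruvate, turn pyruvate into lactate or feed it to the mitochondrion, and move lactate across the plasma membrane. They are 37 genes, chosen by name from the 31395 genes and unnamed probes of the array design. They were read by 62 of the 41000 probes and 80 of the 43376 spots. In all, 36 of the 37 genes had a probe well above background in the pubertal cultures of both arrays or in the infant cultures of both, and only these were tested. The gene left out was SLC16A7, a monocarboxylate transporter whose 2 probes were not well above background in any culture.

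The samples were primary cultures of Sertoli cells made from rhesus macaque (Macaca mulatta) testis. Infant donors were less than 3 months of age. Pubertal donors were aged 18 to 22 months and had been brought into puberty with gonadotropin-releasing hormone (GnRH, 0.15 µg/min in 2 min pulses, 1 every 3 h) over 4 to 5 weeks, so that puberty in these animals was induced and not spontaneous. All 4 cultures, infant and pubertal, spent 24 h with follicle-stimulating hormone (FSH, 5 ng/ml) and testosterone (100 nM), and no culture without the hormones is analysed here. Array 1 set a pubertal culture in Cy5 against an infant culture in Cy3, and array 2 a second pubertal culture in Cy3 against a second infant culture in Cy5, per the labels. The labels number the 4 cultures differently and call the arrays biological replicates, so each test rests on 2 culture pairs and no more. The spread behind a p-value, SE or interval here is that of the 2 pairs, drawn by limma towards the spread over all genes tested. That common spread counted for 3.82 prior degrees of freedom, and the 2 pairs for 1 residual degree of freedom. Each ratio below is pubertal over infant within 1 array, on the log2 scale, and intensities are normalized spot brightness in arbitrary units, which were not scaled between the arrays and give no order among genes.

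Glycolysis splits glucose into pyruvate in the cytosol. Hexokinase traps glucose in the cell, phosphofructokinase commits it to the pathway, and the enzymes from aldolase to pyruvate kinase yield ATP and pyruvate. Sertoli cells are known for sending much of that pyruvate to lactate dehydrogenase and exporting the lactate through monocarboxylate transporters, because germ cells behind the blood-testis barrier live on lactate. FSH is a known stimulus of glucose uptake and lactate output in cultured Sertoli cells. Pyruvate dehydrogenase sends pyruvate the other way, into the mitochondrion, and its kinases shut that route, while the pentose phosphate branch draws glucose 6-phosphate off to make NADPH and ribose.

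The arrays carry human 60-base probes, so macaque RNA was measured by human sequence. The probes below are those on which the results for single genes turn: one printed 10 times, those that read 1 gene more than once, and those of genes that stood far apart in 1 pair of cultures. All letters are lower case, as no part of a probe is singled out, and each is the sequence deposited for the spot, 5′ to 3′.
GAPDH, A_23_P13899: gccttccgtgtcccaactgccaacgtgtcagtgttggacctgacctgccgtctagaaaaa
PGK1, A_24_P604649: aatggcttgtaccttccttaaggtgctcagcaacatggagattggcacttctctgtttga
PFKL, A_23_P29079: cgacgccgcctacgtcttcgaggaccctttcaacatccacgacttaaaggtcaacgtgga
PFKL, A_23_P29081: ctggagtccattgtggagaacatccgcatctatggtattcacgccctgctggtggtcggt
ALDOA, A_23_P88963: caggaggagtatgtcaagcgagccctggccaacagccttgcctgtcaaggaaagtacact
ENO1, A_24_P105501: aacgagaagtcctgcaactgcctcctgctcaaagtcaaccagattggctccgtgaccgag
ENO1, A_23_P137391: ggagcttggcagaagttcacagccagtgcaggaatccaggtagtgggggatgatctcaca
LDHA, A_32_P44568: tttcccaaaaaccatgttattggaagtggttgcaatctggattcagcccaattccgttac
PGD, A_23_P126623: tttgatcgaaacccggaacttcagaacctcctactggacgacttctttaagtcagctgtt
On the human build hg17, as the scanner files give it, the GAPDH probe lies at chr12:6517179-6517238 on the plus strand. The 2 ENO1 probes lie at chr1:8858227-8858286 and chr1:8858320-8858379 on the minus strand. The PGD probe lies at chr1:10413177-10413236 and the LDHA probe at chr11:18381001-18381060, both on the plus strand. The second PFKL probe lies at chr21:44567292-44567351 on the plus strand. The other PFKL probe spans chr21:44568918-44569177, the PGK1 probe chrX:77184552-77184856 and the ALDOA probe chr16:29988825-29988971, all on the plus strand; these stretches of 260, 305 and 147 bases are longer than the 60-base probes, whose letters are thus not contiguous in the genome. PFKP, at chr10:3168781-3168840, and SLC16A3, at chr17:77790577-77790636, were each read by a plus-strand probe given here by its position alone. All 9 printed probes have at least 1 reading frame without a stop codon on the strand shown. The exon and UTR annotation of hg17 and the match of each probe to macaque sequence were not analysed here.

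No gene of the pathway passed the test between stages. With limma, 0 of the 36 members had an adjusted p under 0.05, as had 0% of all 19611 genes tested, and the lowest adjusted p of a member was 0.963. At an unadjusted p under 0.05 there were 3 members, SLC16A3, PFKP and SLC2A3, against 4.04% of all genes. PFKP alone was at least 2-fold higher in the pubertal culture of both pairs (0.342% of all genes were), and SLC16A3 alone at least 2-fold lower in both (0.352%). In the signs of the ratios, 6 members were higher in the pubertal culture on both arrays, where 23.5% of all genes were. A further 11 were lower on both (21.9% of all genes), and 19 had opposite signs (54.6% of all genes). Of those 19, 13 were lower on array 1 and higher on array 2 (23.2% of all genes) and 6 the reverse (31.5%). The pathway thus had no common direction: its median ratio was -0.19 on array 1 and 0.003 on array 2, beside medians over all genes of 0.05 and -0.03.

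These counts depend on how the dyes were balanced. Where each array was centred on its median in place of the loess curve, which follows intensity, 2 members were higher on both arrays, 4 lower and 30 of opposite sign. The genes tested then had medians of 0.63 and -0.42 on the 2 arrays, and relative to those medians 4 members were higher on both, 9 lower and 23 of opposite sign. PFKP and SLC16A3 are each read by 1 kept, unsaturated probe, so that only the scanner's processed signals, a background offset of 0 and median centring can change their ratios. Both kept their signs under these 3, but not always their 2-fold differences. Under median centring PFKP was at 2.22 and 0.26 and SLC16A3 at -0.60 and -1.79, and with the scanner's signals PFKP was at 0.96 and 1.06. Relative to the median of all genes, the median-centred ratios were 1.59 and 0.67 for PFKP and -1.23 and -1.37 for SLC16A3. On that scale SLC16A3 stayed past 2-fold in both pairs and PFKP did not.

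**Figure D1:**
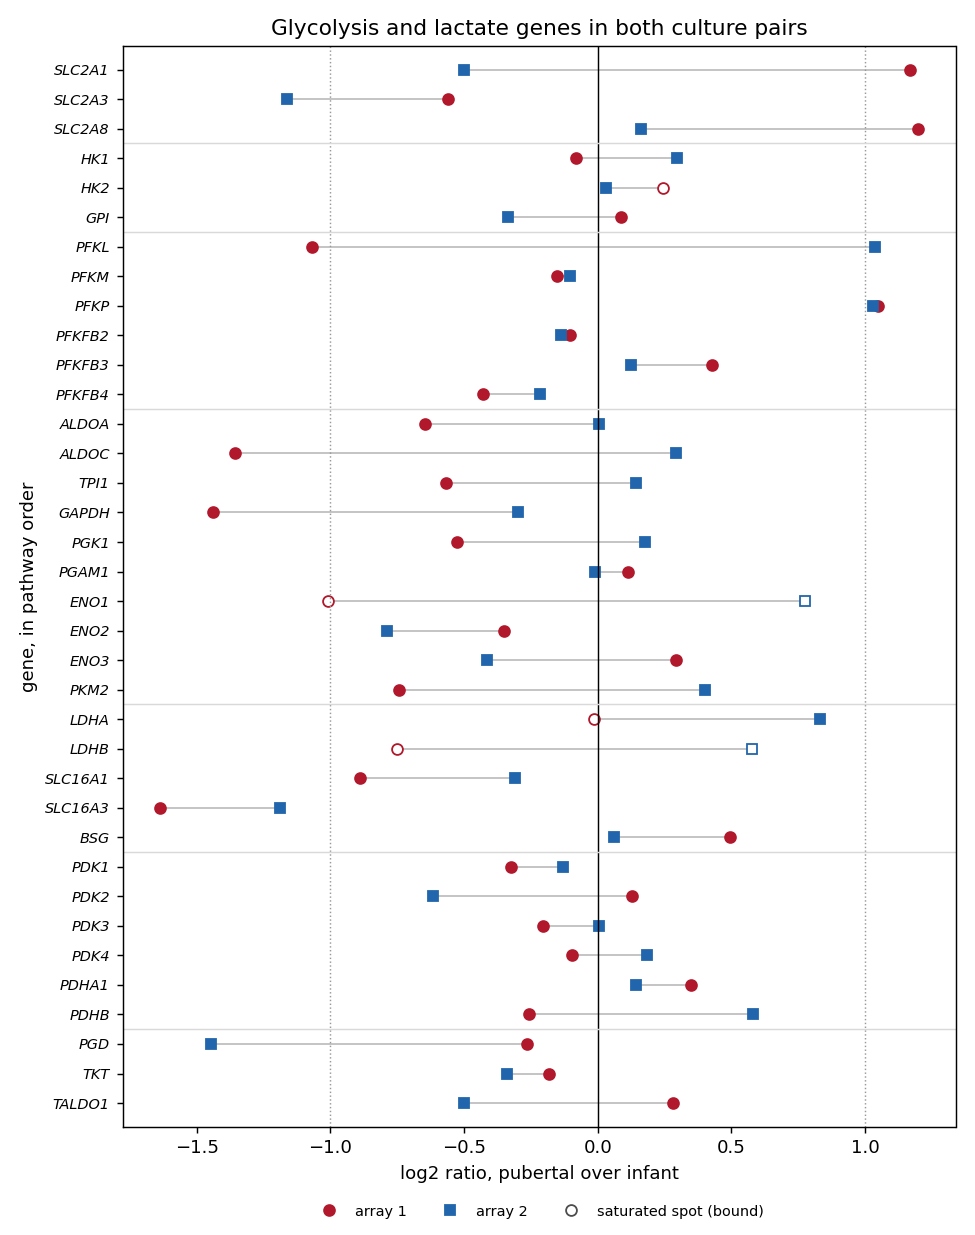
Log2 ratio of pubertal over infant (x axis) for the 36 genes tested, in pathway order (y axis), with circles for array 1, squares for array 2, a grey line joining the pair, dotted lines at 2-fold and open symbols where a spot was saturated. PFKP lies past 2-fold to the right on both arrays and SLC16A3 past 2-fold to the left, while 26 of the 36 genes lie within 2-fold on both.

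The 3 glucose transporters had 3 different patterns. SLC2A1 (GLUT1), the common transporter of basal glucose uptake, had an intensity of 3997 in the pubertal and 1780.2 in the infant culture of array 1, and of 1574 and 2225 on array 2. The pubertal culture was thus higher in pair 1 and lower in pair 2, with log2 ratios of 1.17 and -0.50 and a mean of 0.33 ± 0.45 (moderated SE of the limma fit, as for every ± below unless SD is named; n = 2). SLC2A8 (GLUT8), a transporter held mostly on internal membranes, stood at 4201 against 1833 on array 1 and at 3168 against 2835.5 on array 2. Its ratios were 1.20 and 0.16, so nearly all of its difference was in pair 1, and its 2 dimmer probes were higher on array 1 (0.77 and 0.36) but lower on array 2 (-0.21 and -0.08).

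SLC2A3 (GLUT3), a high-affinity transporter best known from neurons, gave a dim spot. It read 255 in the pubertal and 376 in the infant culture of array 1, and 300.4 and 672 on array 2. In each pair the pubertal culture was the lower, with ratios of -0.56 and -1.16 and a mean of -0.86 ± 0.27 (95% confidence interval -1.57 to -0.15; unadjusted p = 0.027, adjusted p = 1). A second, dimmer probe of the gene gave -0.02 and -0.35. The offset of 50 added to each channel narrows ratios at such intensities, and the scanner's own processed signals gave -0.74 and -1.45 for the brighter probe.

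HK1 and GPI, at the first steps after glucose uptake, had small ratios. HK1, the hexokinase of most tissues, read 2458 and 2599 (pubertal, then infant) on array 1 and 3056 and 2487 on array 2, giving ratios of -0.08 and 0.30. GPI, which turns glucose 6-phosphate into fructose 6-phosphate, had ratios of 0.09 and -0.34. The widest of these 4 ratios was 1.26-fold, that of GPI on array 2.

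HK2, the inducible hexokinase, was read by probes with different ratios. Its brightest probe gave 0.24 on array 1, where the pubertal spot was saturated, so that this ratio is a lower bound, and 0.03 on array 2. A second probe that was saturated nowhere gave -0.92 and 0.91, that is 1851 against 3502 on array 1 and 3938 against 2091 on array 2. HK2 thus has no agreed value in these cultures.

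The 3 phosphofructokinases, the isoenzymes of the committing step, differed from one another. PFKP, the platelet form, read 11289.9 in the pubertal and 5464 in the infant culture of array 1, and 13813 and 6775 on array 2. In each pair the pubertal culture was the higher, by 2.07-fold and 2.04-fold (log2 1.05 and 1.03; mean 1.04 ± 0.24, 95% confidence interval 0.42 to 1.66, unadjusted p = 0.00791). Over all genes tested the adjusted p was 0.984, and over the alternatives it ran from 0.519 to 1 with means of 1.01 to 1.24. The near-equal factors depend on the loess curve: relative to the median of all genes, the median-centred ratios were 1.59 and 0.67.

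PFKL, the liver form, went opposite ways in the 2 pairs. It read 473 in the pubertal and 990.4 in the infant culture of array 1, and 834 and 407 on array 2. The ratios were -1.07 and 1.04, and the mean of -0.02 ± 0.53 had the widest interval of any member, -1.41 to 1.37. The second PFKL probe printed above, which lies upstream of the first, gave -0.88 and 0.64, so both probes had opposite signs in the 2 pairs, and no alternative turned the sign of either ratio.

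PFKM, the muscle form, was close to even, at 7718 against 8574 on array 1 and 8825 against 9482 on array 2 (ratios -0.15 and -0.10). The 3 bifunctional enzymes that make and break fructose 2,6-bisphosphate, the activator of phosphofructokinase, were each less than 2-fold apart in both pairs. PFKFB2 had ratios of -0.10 and -0.14, PFKFB4 -0.43 and -0.21, and PFKFB3 0.43 and 0.12. The PFKFB2 spot was dim, and with an offset of 0 its ratios were -0.18 and -0.17. The 3 dimmer PFKFB3 probes were all higher on array 2 (0.15 to 0.33) but ran from -0.51 to 0.05 on array 1.

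**Figure D2:**
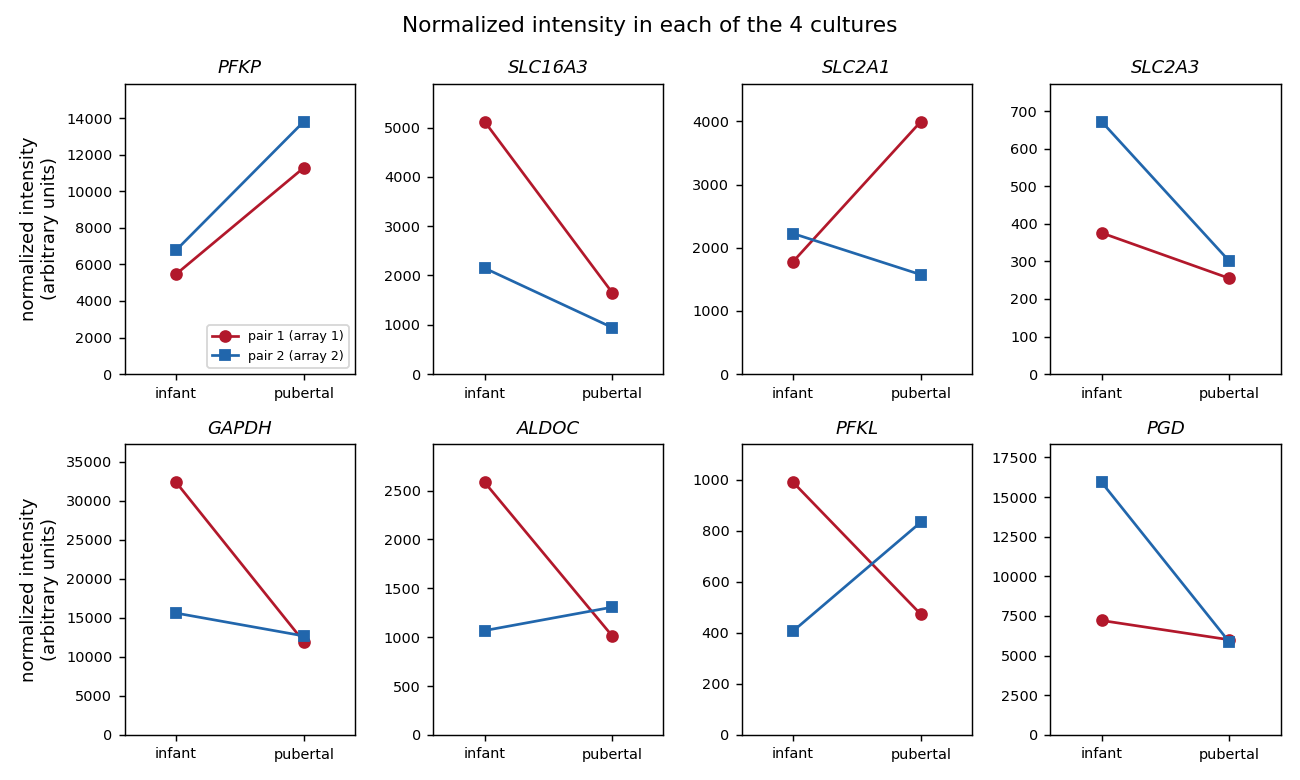
Normalized intensity in arbitrary units (y axis, linear from 0, its own scale in each panel) in the infant and pubertal culture of each pair (x axis), with circles for array 1 and squares for array 2. The lines of PFKP slope up in both pairs and those of SLC16A3 down in both, the lines of PFKL cross, and those of GAPDH and PGD slope down steeply in 1 pair and less in the other.

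From aldolase to lactate dehydrogenase, ALDOC, TPI1, PGK1 and PKM2 were lower in the pubertal culture of pair 1 and higher in that of pair 2. As measured, 10 of the 12 genes along this stretch were lower on array 1 and 8 higher on array 2, counting the bounds of saturated spots and ALDOA, which was even on array 2. Leaving out the 3 with a saturated spot, 7 of 9 were lower on array 1 and 5 of 9 higher on array 2, with the same 5 genes in both, against 23.2% of all genes tested. The counts for a single array also take in genes of 1 sign. Of all genes, a further 21.9% were lower on both arrays, and so lower on array 1. Another 23.5% were higher on both, and so higher on array 2. Under median centring 2 of the 12 were lower on array 1 and 0 higher on array 2, and relative to the median of all genes 7 were lower and 5 higher, so this pattern depends on the normalization.

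ALDOC, the brain-type aldolase, had opposite signs in the 2 pairs. It read 1011 in the pubertal and 2585 in the infant culture of array 1, and 1307 and 1067 on array 2. Pair 1 thus differed by 2.56-fold with the infant culture higher, and pair 2 by 1.22-fold with the pubertal culture higher (ratios -1.35 and 0.29). ALDOA, the muscle and general aldolase, read 9851 against 15430.1 on array 1 and was even on array 2, at 14668 against 14636 (-0.65 and 0.003). Its second probe, for another transcript, gave 0.33 and 0.07. TPI1, which interconverts the triose phosphates, had ratios of -0.57 and 0.14.

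GAPDH, which oxidises glyceraldehyde 3-phosphate and is widely used to normalise expression, was lower in both pubertal cultures. It read 11933.5 in the pubertal and 32378 in the infant culture of array 1, and 12678 and 15609 on array 2. The pairs differed by 2.71-fold and 1.23-fold (ratios -1.44 and -0.30), and the mean of -0.87 ± 0.35 had an unadjusted p of 0.0583. Its probe was printed 10 times, and the ratio of the 10 spots had an SD of 0.121 on array 1 and 0.105 on array 2, with no overlap between the arrays (-1.60 to -1.29 against -0.45 to -0.17). This is the spread between spots of 1 hybridisation, not between cultures. Under median centring the GAPDH ratios were -0.17 and -1.10, or -0.80 and -0.69 relative to the median of all genes, so which pair differs more depends on the normalization.

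PGK1, the first ATP-making enzyme of the pathway, was also printed many times. It read 22223 against 32000.3 on array 1 and 26606 against 23533 on array 2, with ratios of -0.53 (SD 0.0756 over 9 spots) and 0.18 (SD 0.0721 over 10 spots). The pubertal culture was lower in every spot on array 1 and higher in every spot on array 2. The PGK1 probe printed above gave the same signs at larger size, -1.14 and 0.69, and a further probe gave -0.07 and 0.50. Over all 226 probes printed 10 times or more, the median SD between spots was 0.0875 on array 1 and 0.0823 on array 2.

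**Figure D3:**
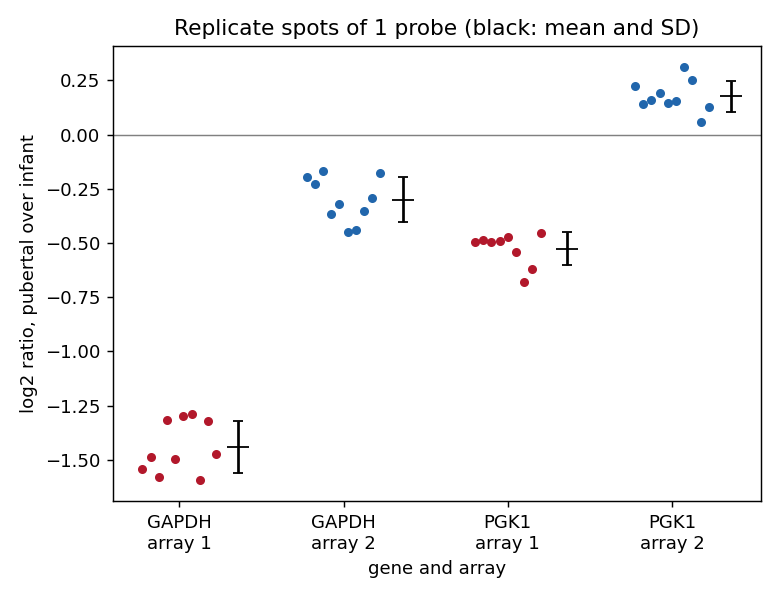
Log2 ratio of pubertal over infant (y axis) of each spot of the repeated GAPDH and PGK1 probes on each array (x axis), with the mean and SD over spots in black. The spots of a gene on 1 array lie close together, and the spots of array 1 lie below those of array 2 for both genes.

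The steps from phosphoglycerate to pyruvate were as mixed. PGAM1, which moves the phosphate of phosphoglycerate, was even, at 0.11 and -0.01. ENO1, the general enolase, was saturated in Cy5 on both arrays, in the pubertal culture of array 1 and in the infant culture of array 2. Its ratios of -1.01 and 0.78 are therefore a lower bound on array 1 and an upper bound on array 2, and neither settles a direction. The second ENO1 probe was saturated on array 1 alone, and its ratio of 0.42 on array 2 had the pubertal culture higher.

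ENO2, the neuronal enolase, was dim and lower in both pubertal cultures, at 203 against 259 on array 1 and 108 against 187 on array 2 (ratios -0.35 and -0.79; mean -0.57 ± 0.26, unadjusted p = 0.0806). The offset narrows these ratios. With the scanner's processed signals ENO2 was at -0.68 and -1.49, and with an offset of 0 at -0.50 and -1.32, past 2-fold on array 2 in both. ENO3, the muscle enolase, had ratios of 0.29 and -0.42. PKM2, the older name of the pyruvate kinase gene PKM, read 2232 against 3740.3 on array 1 and 2911 against 2207 on array 2. Its 2 probes gave almost the same ratios, -0.74 and -0.75 on array 1 and 0.40 and 0.42 on array 2, with the sign turned between the pairs.

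The lactate dehydrogenases interconvert pyruvate and lactate, LDHA favouring lactate. The 3 LDHA probes all had the pubertal culture higher on array 2, at 0.83, 0.47 and 1.29. On array 1 the brightest gave -0.01 with a saturated pubertal spot, a lower bound, while the other probes gave 0.49 and -0.27. The probe at 0.49 and 0.47, with 9895 against 7045.5 on array 1 and 8909 against 6442 on array 2, was unsaturated. Its ratios in the 2 pairs were close under the loess curve, but 0.32 and 0.52 with the scanner's signals. Under median centring the brightest probe was at 1.30 and -0.07, or 0.67 and 0.35 relative to the median of all genes, so the LDHA ratios depend on the normalization. The LDHA probe printed above, also unsaturated, read 13297 against 16067 on array 1 and 20868.5 against 8557 on array 2.

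LDHB, the form that favours pyruvate, was saturated in Cy5 on both arrays like ENO1. Its ratios of -0.75 and 0.58 are a lower and an upper bound and give no direction.

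Lactate export had the lowest ratio of the whole set. SLC16A3 (MCT4), a transporter known for lactate export from glycolytic cells, read 1648 in the pubertal and 5122 in the infant culture of array 1, and 943 and 2149.5 on array 2. In both pairs the pubertal culture was lower, by 3.11-fold and 2.28-fold (ratios -1.64 and -1.19). The mean was -1.41 ± 0.26, or 2.66-fold, with a 95% confidence interval of -2.08 to -0.74, an unadjusted p of 0.00314 and an adjusted p of 0.963. Over the alternatives the mean ran from -1.47 to -1.20 and the adjusted p from 0.304 to 1.

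SLC16A1 (MCT1), a transporter that moves lactate either way, was lower in both pubertal cultures as well. It read 1349.9 against 2500 on array 1 and 1468 against 1821 on array 2, with ratios of -0.89 and -0.31 and a mean of -0.60 ± 0.27 (unadjusted p = 0.0803). Under median centring its ratios were 0.06 and -0.92, or -0.57 and -0.50 relative to the median of all genes. BSG (basigin), the chaperone that brings both transporters to the membrane, was higher in the pubertal culture of pair 1 and near even in pair 2, at 3769 against 2676 and at 2560.1 against 2457 (ratios 0.49 and 0.06). Its second probe gave 0.70 and 0.04.

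**Figure D4:**
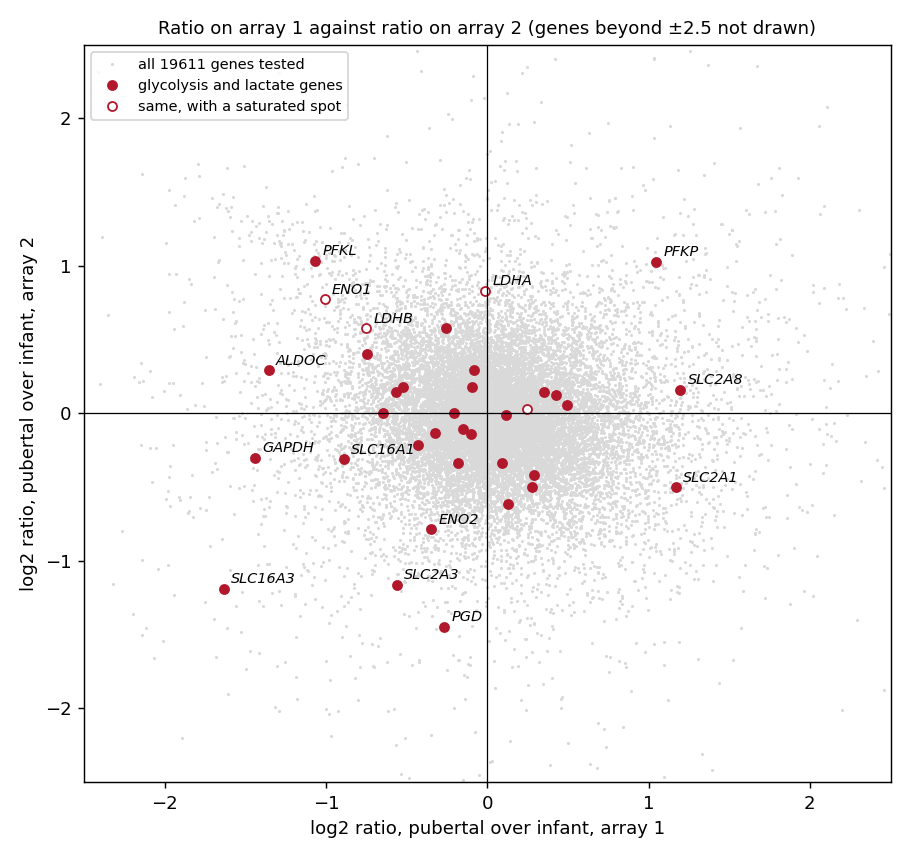
Log2 ratio of pubertal over infant on array 1 (x axis) against array 2 (y axis) for all genes tested within the drawn range (grey) and for the glycolysis and lactate genes (red, open where a spot was saturated). PFKP lies alone at upper right and SLC16A3 at lower left among the red points, while ALDOC and PFKL lie at upper left, lower in pair 1 and higher in pair 2, beside ENO1 and LDHB, whose ratios are bounds.

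The gate between lactate and the mitochondrion had ratios of both signs, all under 2-fold. PDHA1 and PDHB, the alpha and beta subunits of the first enzyme of the pyruvate dehydrogenase complex, had ratios of 0.35 and 0.14 and of -0.26 and 0.58. Of the 4 kinases that inactivate the complex, PDK1 gave -0.32 and -0.13, PDK3 -0.20 and 0.004, and PDK4 -0.09 and 0.18. PDK2 gave 0.13 and -0.62. Both PDK2 and PDK4 were dim, and with an offset of 0 PDK2 gave 0.13 and -0.77 and PDK4 -0.16 and 0.31. None of the 6 genes was 2-fold apart in either pair.

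In the pentose phosphate branch PGD, an NADPH-making enzyme, was far apart in pair 2. It read 5998 in the pubertal and 7216 in the infant culture of array 1, and 5852 and 15933.5 on array 2. Pubertal was below infant in both pairs, by 1.20-fold and 2.72-fold (ratios -0.27 and -1.45; mean -0.86 ± 0.36, unadjusted p = 0.0646). Under median centring the array 1 ratio turned to 0.88, or 0.25 relative to the median of all genes.

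TKT (transketolase) and TALDO1 (transaldolase) link this branch back to glycolysis. TKT had ratios of -0.18 and -0.34. The brightest TALDO1 probe gave 0.28 and -0.50, and its other 3 probes ran from -0.03 to 0.25 on array 1 and from -0.59 to -0.26 on array 2.

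Of the 14 members read by at least 2 kept probes, 8 had the same pair of signs in every probe. Among these, PFKL, PGK1, ENO1 and PKM2 were lower on array 1 and higher on array 2 by each probe (for ENO1 as measured, with saturated spots), SLC2A3, PFKFB2 and PDK1 lower on both, and BSG higher on both. The probes of SLC2A8, HK2, PFKFB3, ALDOA, LDHA and TALDO1 disagreed in sign on at least 1 array. A further 22 members, PFKP, SLC16A3, GAPDH and PGD among them, rest on 1 kept probe each.

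**Figure D5:**
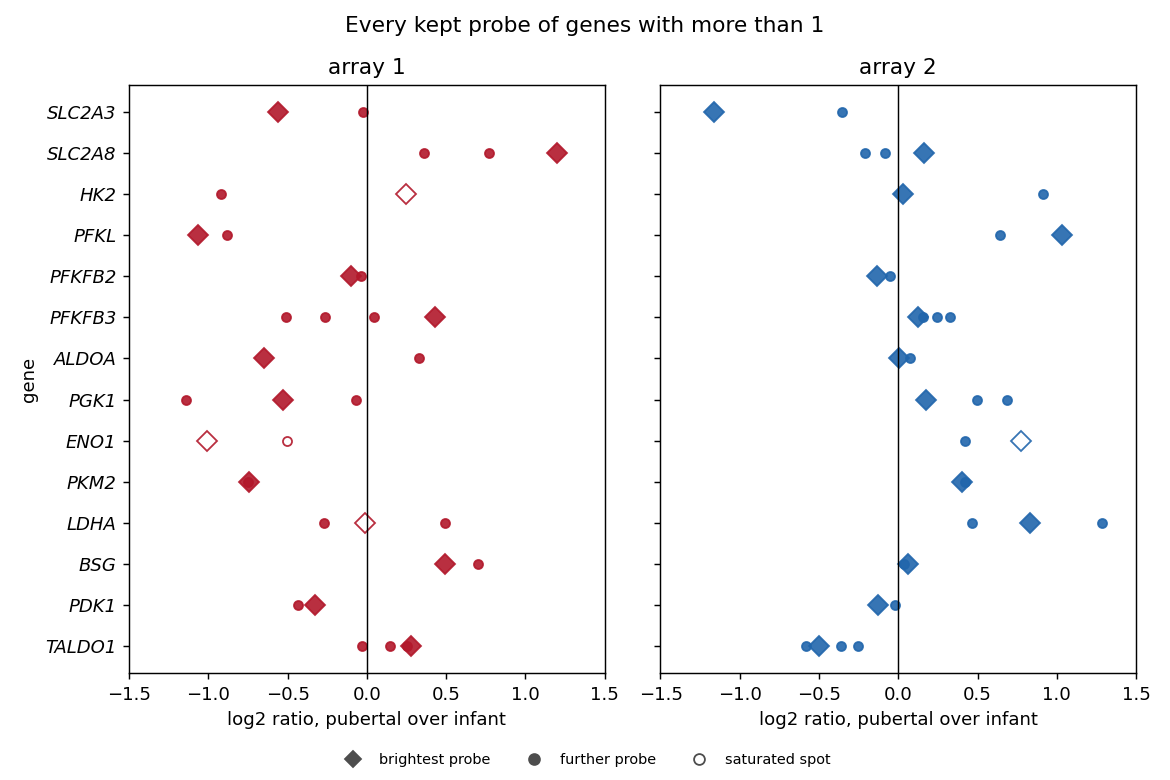
Log2 ratio of pubertal over infant (x axes) of every kept probe of the 14 genes with more than 1 (y axis), on array 1 (left) and array 2 (right), with a diamond for the brightest probe, circles for further probes and open symbols where a spot was saturated. The probes of PFKL, PGK1, ENO1 and PKM2 all lie left of 0 on array 1 and right of 0 on array 2, while those of HK2 and LDHA lie on both sides on array 1.

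Reading the ratios as Cy5 over Cy3 sets the pairs against each other, since there a stage difference cancels. Again 0 of the 36 members passed an adjusted p of 0.05 with limma (0% of all genes, lowest adjusted p of a member 0.721), and 4 had an unadjusted p under 0.05, against 6.83% of all genes. Those 4, by limma's unadjusted p, were PFKL (0.00603), ENO1 (0.0122), LDHB (0.0279) and SLC2A1 (0.0354), of which ENO1 and LDHB were saturated. A dye effect and a difference between the animals of the pairs cannot be told apart here, since each dye order was used in 1 pair.

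The spots of these genes were bright. The median member stood at percentile 80.0 of intensity over all genes tested, 22 of the 36 were above the upper quartile, and 11.1% of members had a saturated spot against 2.23% of all genes. Of the spots on each array, 60.9% to 74.8% were well above background in a given culture, and saturated spots numbered 586 and 428 in Cy5 and 0 and 2 in Cy3. Over all genes tested the ratios of the arrays had a Pearson correlation of -0.07, a description across genes, which are not independent replicates, and 45.4% of genes had the same sign in both. The 95% confidence interval of a member's mean reached from 0.62 to 1.39 either side, with a median of 0.71, so that 19 of the 36 intervals lay within 2-fold of no difference. Among the 19 is HK2, whose interval does not limit its difference, since its array 1 ratio is a bound and its probes disagree.

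Other genes of the pathway, taken from a list of 91 names of which 63 could be tested, also went both ways. With limma, 0 passed an adjusted p of 0.05 (0% of all genes) and 5 had an unadjusted p under 0.05 (4.04% of all genes). Of the 63, 17 were higher on both arrays (23.5% of all genes), 20 lower on both (21.9%) and 26 of opposite sign (54.6%). TKTL1, a transketolase-like gene, was the highest, at 2.65 and 1.08 (unadjusted p = 0.00811, adjusted p = 0.984). UGP2, which makes the UDP-glucose used for glycogen, was steady at 0.93 and 0.96, and GPT, an alanine transaminase, was at 1.14 and 0.02. Lowest were GPT2, the mitochondrial alanine transaminase, at -0.23 and -2.52 (-0.56 and -1.62 by a second probe), PDP2, a phosphatase that reactivates pyruvate dehydrogenase, at -0.75 and -0.85, and SLC16A5, a further member of the monocarboxylate transporter family, at -0.36 and -1.10.

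Further genes of the pentose phosphate branch, H6PD, PGLS and RPIA, lay within 2-fold on both arrays. H6PD, an NADPH-making enzyme of the endoplasmic reticulum, had ratios of -0.995 and -0.01 by its brightest probe, and its other kept probes gave 0.31 and -0.08 and -0.68 and 0.25. PGLS, the lactonase, gave -0.61 and -0.35, with a second probe at 0.11 and -0.44, and RPIA, an isomerase of ribose 5-phosphate, gave -0.31 and -0.35. None of the 3 passed the test.

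Hypoxia-inducible factor (HIF) is a known activator of glycolytic genes, SLC16A3 included. Among its targets outside glycolysis 4 of 17 were higher on both arrays (23.5% of all genes were) and 8 lower (21.9%). Under median centring 1 was higher and 1 lower, or 5 and 6 relative to the median of all genes. HIF1A itself had ratios of 0.70 and 0.55 and EGLN1, an oxygen sensor that marks HIF for destruction, 0.99 and 0.90 (0.27 and 0.99 by a second probe), both higher in both pubertal cultures. NDRG1, a target induced by low oxygen, was at -0.93 and -1.34 with a second probe at -0.14 and -0.23. EGLN3, a further oxygen sensor and itself a target, was at -1.25 and -0.67, and BNIP3, a mitophagy gene, at -1.20 and -0.31, while LOX, which cross-links collagen, was at 0.76 and 0.07. With limma 0 of the 34 regulators and targets passed an adjusted p of 0.05 (0% of all genes). An unadjusted p under 0.05 was found for 4 of the 34, against 4.04% of all genes.

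Markers of the cell types that the cultures could hold went both ways. Of 51 tested, 24 were higher on both arrays (23.5% of all genes) and 15 lower on both (21.9%). With limma, 0 passed an adjusted p of 0.05 (0% of all genes). An unadjusted p under 0.05 was found for 20, against 4.04% of all genes, in lists chosen with earlier results of these data known. All 12 Sertoli markers were well enough above background to be tested, SOX9, WT1, GATA4 and AMH among them, although FSHR, the FSH receptor, was not well above background in the pubertal culture of array 2. Of these 12, 6 were higher in both pubertal cultures (23.5% of all genes) and 1 lower (21.9%), and CST9L was the furthest apart at 4.85 and 4.58 (adjusted p = 0.192). Where every culture had to be well above background, 11 Sertoli markers were left, 6 higher on both arrays and 0 lower. The summed Sertoli intensity was 112797 and 177656 in the pubertal and 139485 and 93819 in the infant cultures of arrays 1 and 2.

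All 8 stroma markers, from PDGFRA to DCN, were lower in both pubertal cultures, where 21.9% of all genes were. Their summed intensity was 20968 and 31632 in the pubertal and 56816 and 49086 in the infant cultures. Under median centring 6 of the 8 were lower on both. NR2F2 was at -1.60 and -1.06 and FBLN1 at -1.28 and -1.30, with further FBLN1 probes at 0.01 and -0.21 and at -0.90 and -0.08. All 7 germ cell markers tested were higher in both (6 of 7 under median centring), where 23.5% of all genes were. The filter keeps genes well above background in the pubertal cultures alone. Where every culture had to be well above background, 6 germ cell markers were left, 6 higher on both arrays and 0 lower. With no filter, 7 of 9 were higher on both and 0 lower. The spots of the 7 markers were dim, with sums of 2304 and 2060.0 in the pubertal and 1142 and 1231 in the infant cultures. Furthest apart were STK31 at 2.06 and 1.35 and DAZL at 1.18 and 1.65. PGK2 and GAPDHS, the glycolytic enzymes of late germ cells, were not well above background, and LDHC, the germ cell lactate dehydrogenase, was at 0.35 and 0.47.

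The other cell types were less uniform, and some of their sums hold saturated spots, as does the Sertoli sum: 3 of 5 Leydig, 1 of 6 peritubular myoid and 3 of 12 Sertoli genes had one. Without them 0 of 2 Leydig markers were higher and 1 lower, 2 of 5 myoid markers higher and 2 lower, and 6 of 9 Sertoli markers higher and 1 lower. Of 5 Leydig markers tested 1 was higher and 1 lower on both arrays, the lower being CYP17A1 at -2.12 and -1.45, with sums of 94355 and 108434 in the pubertal and 77600 and 75091 in the infant cultures. Of 6 peritubular myoid markers 3 were higher and 2 lower, with sums of 40187 and 79834 against 22021 and 74243. Macrophage markers were higher for 3 of 6 and lower for 1 (1677 and 915 against 718 and 845), endothelial markers higher for 2 of 4 and lower for 1 (903 and 823 against 723 and 736), and erythroid markers higher for 2 of 3 and lower for 1 (372 and 344 against 344 and 341). SLC16A3 and SLC16A1 were thus lower in the same cultures as the stroma markers. PFKP was higher in the same cultures as the germ cell markers and as 6 of the 12 Sertoli markers. With 2 pairs, any gene lower on both arrays (21.9% of all genes) matches the stroma markers in this way. Any gene higher on both (23.5%) likewise matches the germ cell markers. The marker lists were also chosen with earlier results of these data known. The part of these cell types in the ratios of SLC16A3, SLC16A1 and PFKP was not tested, and in whole cultures fewer cells of a type and less RNA per cell cannot be told apart.

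The authors' deposited table of log2 ratios holds 15 probes of the members, and all 15 have a ratio of 1 or more in size on at least 1 array. It comes from the same 2 arrays, so its values are not independent of those above. For PFKP the authors' deposited table gives 0.92 and 1.04 in its columns for arrays 1 and 2, and for SLC16A3 it gives -1.56 and -1.36. For PFKL the authors' deposited table lists both probes printed above, at -1.15 and 1.06 and at -1.06 and 0.79, opposite in sign as here. The same table lists GAPDH at -1.37 and -0.32, PGD at -0.30 and -1.49, and SLC2A1 at 1.11 and -0.48.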

How the data were processed

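The deposited scanner files hold, per the file headers, mean and local background intensity in each channel, intensity processed by the scanner software, a log10 ratio of Cy5 over Cy3, and flags for background, saturation and outliers. Per the submitters' processing notes they come from Agilent Feature Extraction 9.5.1.1. The authors' deposited table holds log2 ratios of 4848 probes. Set against the scanner's log ratios it had slopes of 1.006 and 1.003 taken as pubertal over infant, with column medians of -0.37 and 0.12; how it was centred and selected is not given in the sources used here.

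Intensities were corrected by normexp (offset 50) and loess in limma 3.58.1 (R 4.3.3). The loess curve gave control spots weight 0. Outlier-flagged spots were left out and saturated ones kept. Spots of a probe were averaged, and 15232 probes that were well above background in neither stage on both arrays were left out. The brightest kept probe stood for a gene, and unnamed probes stayed single.

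Ratios, turned by the dye labels, were fitted with lmFit and eBayes (two-sided, Benjamini-Hochberg over 19611 genes, 1 residual and 3.82 prior degrees of freedom). Only 2 arrays limit the precision. Both arrays were read from the same slide, per the slide barcode in the file headers. Alternatives are given in the closing section.

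All members were accounted for. Of each other list, up to 3 genes higher and 3 lower with the largest mean among those of 1 sign were named; H6PD, PGLS, RPIA, PDGFRA, DCN, SOX9, WT1, GATA4, AMH, FSHR and LDHC were added. Members and lists were chosen with earlier results of these data known. Of the 37 gene names 36 matched a macaque RefSeq symbol.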

Additional observations from a re-analysis of the deposited data

How the results depend on the processing

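In all 9 alternatives were run: the scanner's processed signals, normexp with offset 0, median centring, Aquantile, no filter, a filter on both channels of both arrays, means over probes, leaving out saturated genes, and an intensity trend in eBayes. No member passed the adjusted threshold under any of them. Over 8 of them (the trend leaves means as they are), 271 of 284 single-gene means kept their sign and 13, of 11 genes, turned. With the scanner's signals the mean turned to 0.055 for ENO1 and 0.018 for LDHB, both saturated. With median centring it turned to 0.090 for ENO1, 0.033 for ENO3, 0.087 for GPI, 0.12 for LDHB, 0.044 for PDK3, 0.11 for PFKL, 0.075 for PFKM, 0.045 for PGK1, 0.022 for PKM2, 0.10 for TALDO1 and 0.011 for TPI1. Median centring also gave 2 members higher on both arrays, 4 lower and 30 of opposite sign, with member medians of 0.72 and -0.69; the cause was not tested. Over all genes 0 passed in the setting used above and 1 under offset 0, median centring and the intensity trend. Without saturated genes 32 members were left, 5 higher on both arrays, 11 lower and 16 of opposite sign. Leaving out either pair leaves 1 array, a value with no test: from -1.64 to 1.20 on array 1 and from -1.45 to 1.04 on array 2. No paired analysis was possible because each ratio already is a pair of cultures and the ratios form 1 group. Ratios of dim genes are narrowed by the offset, and those of saturated spots are bounds.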
